A study of Mus musculus with 6 samples.

Results

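The genes described here are 39 genes of innate sensing, interferon signalling and major histocompatibility complex (MHC) class I antigen presentation, measured in Med23 knockout and wild-type mouse embryonic stem (ES) cells. Med23 is part of Mediator, the complex that connects transcription factors with RNA polymerase II. A list of gene symbols chose the 39 genes, and no measured value was part of that rule. That list, and those of other pathway genes below, were chosen with earlier results of these data known. Their counts beside the shares over all genes are therefore descriptive. All probe sets that the platform annotation gives to 1 listed symbol alone were taken, which gave 71 of 45037 probe sets and 36 of 18193 genes. Ripk2 and Nfkb1 had no such probe set, and the only probe set of the ubiquitin-like modifier gene Isg15 also carries a second symbol. These 3 genes have no value here. Where a gene had several probe sets, the one of highest mean across the 6 arrays stands for it as its main probe set, and others are given where they add to or differ from it.

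Med23 knockout ES cells were set against wild-type ES cells, both of the 129SV strain and both harvested 24 hours after a change to fresh complete medium. Each genotype had 3 Affymetrix arrays, which the sample titles name as biological replicates. The sources used here do not say how the knockout was made or whether its arrays stem from 1 clone. The Med23 knockout and any other difference between these lines cannot be told apart. Med23 itself had values of 7.40, 7.37 and 7.33 (log2) in knockout arrays, against 8.95, 8.86 and 8.84 in wild-type arrays, which differed by -1.52 (SE 0.06, limma adjusted p = 2.69e-05). The transcript was thus 2.86-fold lower but still read well above the median of all probe sets, 4.62, in the knockout arrays, and which part of it the probe set reads is not known here. Array medians lay between 4.61 and 4.64. Wild-type replicate 1 stood somewhat apart, with correlations of 0.9930 and 0.9941 to the other arrays of its group. All 10 pluripotent cell markers, Pou5f1 and Nanog among them, exceeded the median over all probe sets in knockout and wild-type means. Of the 10, 3 fell and 0 rose, where 10.4% of all genes fell.

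Innate immunity begins with receptors that recognise microbial molecules. NOD proteins sense cell wall fragments in the cytoplasm, Toll-like receptors sense ligands at membranes, and RIG-I-like receptors sense foreign RNA. Their signals reach NF-kB and the interferon regulatory factors (IRFs), which switch on type I interferon genes, and interferon receptors then drive the factor ISGF3, which contains STAT2 and IRF9, to induce antiviral genes and much of the MHC class I pathway. Pluripotent stem cells are known for a weak interferon response and low MHC class I, and for constant expression of some antiviral genes such as the IFITM genes.

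Between knockout and wild-type cells, 5 of the 36 genes were higher and 9 were lower by their main probe sets at an adjusted p under 0.05 (limma, Benjamini-Hochberg over all probe sets). The background over all 18193 genes was 8.53% higher and 10.4% lower. The median log2 fold change, knockout minus wild-type, was -0.01 for the 36 genes and 0.02 for all genes. Counted over probe sets, 10 of 71 were higher and 12 lower, where 6.69% and 7.43% of all probe sets were called. The groups did not overlap in any of the 14 genes called, nor in 5 of the 22 that did not pass. That share was not counted over all genes, so it adds nothing to the calls. Only Nod1, Xaf1, Rsad2 and Tap1 differed by at least 2-fold, and all 4 were lower in the knockout by that probe set. The second probe set of Xaf1 was higher, however, and the other 3 of Tap1 did not pass. How many of all genes differed by at least 2-fold was not counted, so this count is descriptive. Of the 14 calls, those of Nod1, Irf9, Rsad2, Ifitm3, Psmb9 and Tap1 held in every alternative run. The count of higher genes was the less stable one: it was 3, 1 and 2 without knockout replicates 1, 2 and 3, and 6, 2 and 2 without wild-type replicates 1, 2 and 3. In a bulk culture, fewer cells that carry a transcript and less of it per cell cannot be told apart.

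Several of the genes gave little signal. No detection calls were used, so levels were set against 84 probe sets of chemosensory receptors (odorant, vomeronasal, trace amine and taste receptors), taken here as a background. The 95th percentile of their means was 3.98 (log2) in knockout arrays and 3.89 in wild-type arrays, and the median of all probe sets was 4.62. Tlr3, Ifih1, Irf2, Irf7, Ifit1, Ifit3, Mx1 and Mx2 lay at or below that chemosensory level in both groups, so 8 of 36 genes were near background throughout. Psmb8 was near background in the knockout, and both of its group means were under 4.62. Over all genes, 4959 of 18193 lay at or below the chemosensory level in both groups.

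**Figure D1:**
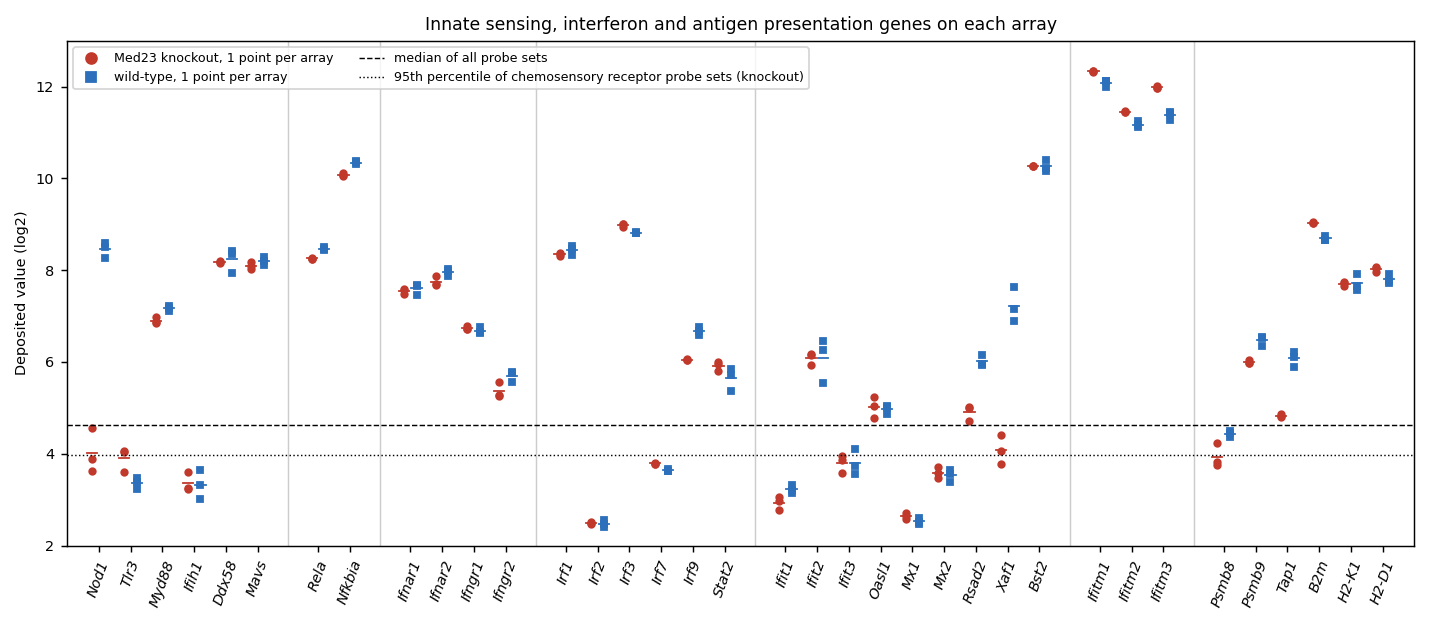
Deposited log2 values (vertical axis) of the 36 genes on each array, with red circles for the 3 knockout arrays left of blue squares for the 3 wild-type arrays, short lines at the group means, and gray lines between functional groups. The knockout points of Nod1 and Xaf1 lie near the background lines while their wild-type points lie well above, and 8 genes lie at or below the chemosensory level in both groups.

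Among the sensors and adaptors, 2 of 6 genes fell and 1 rose, where 10.4% of all genes fell and 8.53% rose. Nod1 encodes the cytoplasmic receptor for peptidoglycan fragments. Its 1 probe set gave 3.62, 3.88 and 4.56 in knockout arrays, against 8.59, 8.51 and 8.27 in wild-type arrays. All wild-type values were far above all knockout values, and the knockout mean of 4.02 was close to the chemosensory level of 3.98. The difference was -4.43 on the log2 scale (SE 0.23, limma adjusted p = 6.15e-05), which is 21.6-fold. That size is uncertain because the knockout mean lay so close to background. Across the alternatives the difference stayed between -4.70 and -4.23.

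Myd88, the adaptor shared by most Toll-like receptors and by interleukin-1 receptors, was 6.99, 6.84 and 6.87 in knockout arrays and 7.18, 7.10 and 7.22 in wild-type arrays. The groups were separate but close, and differed by -0.27 on the log2 scale (SE 0.07, limma adjusted p = 0.0468). That call was lost in 10 of 13 alternatives, with adjusted p up to 0.161. Tlr3, the endosomal receptor for double-stranded RNA, had 3.61, 4.06 and 4.04 in knockout arrays and 3.46, 3.38 and 3.23 in wild-type arrays. It passed with 0.54 (SE 0.13, limma adjusted p = 0.0374), but both means were near background, its other probe set gave 0.06, and 6 of 12 alternatives ended the call.

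The main probe sets of the RNA-sensing branch did not pass the test. Ddx58, which encodes RIG-I, had 8.18, 8.16 and 8.20 in knockout arrays and 8.41, 8.35 and 7.94 in wild-type arrays, with overlapping groups and a log2 fold change of -0.05 (limma adjusted p = 0.837). A dimmer Ddx58 probe set was 0.38 higher (limma adjusted p = 0.0408). The calls of these probe sets thus differ, and the difference between their values was not tested. Mavs, the mitochondrial adaptor of RIG-I and MDA5, averaged 8.10 ± 0.07 in knockout arrays and 8.19 ± 0.09 in wild-type arrays (SD, n = 3 each). Its second probe set was at -0.28 with separate groups, and did not pass either (limma adjusted p = 0.1). Ifih1, which encodes MDA5, stayed near background at means of 3.36 in knockout arrays and 3.32 in wild-type arrays.

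Of the NF-kB genes, Nfkbia, the inhibitor that holds NF-kB in the cytoplasm and is itself an NF-kB target, had 10.07, 10.06 and 10.13 in knockout arrays and 10.36, 10.31 and 10.37 in wild-type arrays. The groups did not overlap, and the difference was -0.26 (SE 0.06, limma adjusted p = 0.0294), with the call lost in 6 of 13 alternatives. Its 5 probe sets all had negative values, from -0.29 to -0.09, and 2 of them passed. Rela, the main activating NF-kB subunit, had 8.25, 8.27 and 8.25 in knockout arrays and 8.51, 8.47 and 8.44 in wild-type arrays. Although separate, its groups missed the threshold at -0.22 (SE 0.06, limma adjusted p = 0.0507), and 4 alternatives brought it below 0.05.

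None of the 4 interferon receptor genes passed. They encode the chains of the type I receptor (Ifnar1, Ifnar2) and of the interferon-gamma receptor (Ifngr1, Ifngr2). Ifnar2 had 7.68, 7.88 and 7.69 in knockout arrays and 8.04, 7.98 and 7.87 in wild-type arrays, with groups that overlapped slightly. The log2 fold changes ran from -0.32 for Ifngr2 to 0.06 for Ifngr1, and the lowest adjusted p was that of Ifngr2 (limma, 0.0895). The main probe set of each of the 4 genes exceeded 4.62 in knockout and wild-type means, and the 4 dimmer probe sets of Ifnar1, Ifnar2 and Ifngr2, at -0.42 to 0.09, did not pass.

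Of the interferon transcription factors, Irf9 passed, and the other 5 did not. Irf9 encodes the DNA-binding subunit of ISGF3. It had 6.05, 6.05 and 6.06 in knockout arrays and 6.68, 6.75 and 6.58 in wild-type arrays. The knockout values were nearly equal and lay below every wild-type value, at a difference of -0.62 (SE 0.07, limma adjusted p = 0.00127). Irf9 lies on chromosome 14 among genes that were lower together. Of its 20 nearest measured genes with a mean above 7, 10 on each side, 18 were lower past the test and none was higher, and their median log2 fold change was -0.81. Irf9 minus that median was 0.19, so Irf9 fell by less than the neighbours' median.

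The ISGF3 partner gene Stat2 had 5.96, 6.003 and 5.80 in knockout arrays and 5.71, 5.36 and 5.86 in wild-type arrays. These groups overlapped (log2 fold change 0.28, limma adjusted p = 0.237), while its second probe set was 0.38 higher (limma adjusted p = 0.0436). Irf3, the latent factor that starts interferon-beta transcription, had 8.996, 8.94 and 8.996 in knockout arrays and 8.81, 8.82 and 8.81 in wild-type arrays. Its 4 probe sets were all positive, between 0.12 and 0.20, and none passed. Irf1, an activator of MHC class I and immunoproteasome genes, averaged 8.35 ± 0.02 in knockout arrays and 8.44 ± 0.10 in wild-type arrays (SD, n = 3 each; limma adjusted p = 0.473). Irf7, the amplifier of the interferon response, and Irf2, a repressor of interferon targets, were near background.

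**Figure D2:**
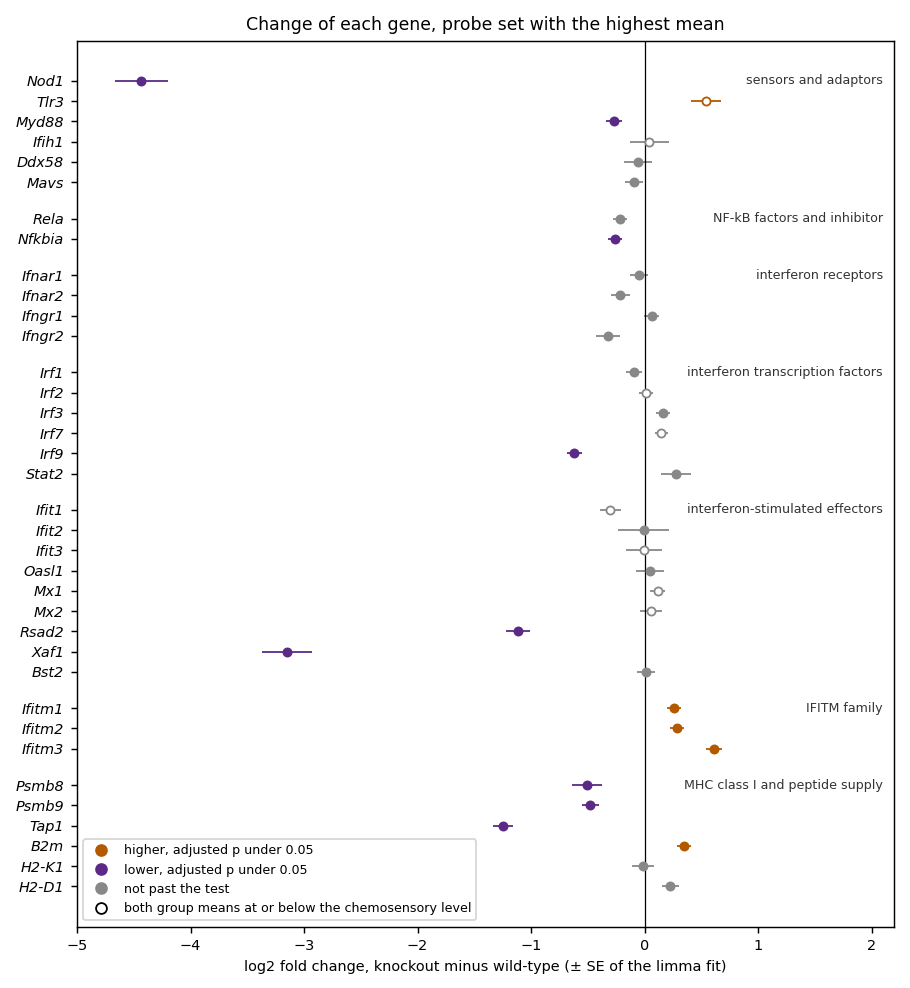
Log2 fold change, knockout minus wild-type, with its SE (horizontal axis) for the 36 genes by functional group. Purple marks genes lower and orange genes higher at an adjusted p under 0.05, gray those that did not pass, and open symbols genes near background in both groups. Nod1 and Xaf1 lie at -4.43 and -3.15, the 3 IFITM genes lie together on the higher side, and the interferon receptors lie around 0.

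The interferon-stimulated effectors block virus replication at different steps. By main probe sets, 2 of 9 such genes were lower, where 10.4% of all genes were, and 7 did not pass. The 2 are Rsad2 and Xaf1, and Xaf1 was higher by its second probe set. Rsad2 encodes viperin, a radical SAM enzyme that makes a chain-terminating nucleotide. It had 5.01, 4.72 and 4.9997 in knockout arrays and 5.96, 6.16 and 5.94 in wild-type arrays. The groups were well apart, at a difference of -1.11 on the log2 scale (SE 0.10, limma adjusted p = 0.000689), and 3 of 3 probe sets fell, the others by 0.67 and 0.84. Those 2 dimmer probe sets had knockout means near background.

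The promoters of Rsad2 and Ifit1 are shown because both hold the same interferon motif, while Rsad2 passed the test and Ifit1 did not.
Rsad2 (chr12:26456453-26456702, minus strand): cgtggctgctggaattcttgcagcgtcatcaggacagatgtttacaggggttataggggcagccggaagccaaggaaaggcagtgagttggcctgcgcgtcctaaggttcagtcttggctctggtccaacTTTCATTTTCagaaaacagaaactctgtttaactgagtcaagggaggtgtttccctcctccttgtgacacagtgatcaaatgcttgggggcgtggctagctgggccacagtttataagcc
Ifit1 (chr19:34640639-34640888, plus strand): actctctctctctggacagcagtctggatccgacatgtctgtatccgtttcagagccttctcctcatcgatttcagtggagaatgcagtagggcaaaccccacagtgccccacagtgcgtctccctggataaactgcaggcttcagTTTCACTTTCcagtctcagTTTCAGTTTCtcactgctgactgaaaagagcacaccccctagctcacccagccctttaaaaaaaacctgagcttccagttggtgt
Each is the 250 bases before the annotated start in RefSeq on GRCm38.p6, printed 5′ to 3′ along the gene, with matches to the interferon-stimulated response element (ISRE, searched as GAAANNGAAA on both strands) in capitals. Ifit1, which encodes a protein that binds foreign RNA, has 2 matches where Rsad2 has 1. Ifit1 was near background, with 2.96, 2.77 and 3.05 in knockout arrays and 3.33, 3.14 and 3.22 in wild-type arrays, and its log2 fold change of -0.30 did not pass (limma adjusted p = 0.0773).

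Over all 27025 genes with a promoter window, 3.46% held the ISRE letters in these 250 bases. Among the 35 listed genes with a window, 10 did: B2m, Bst2, Ifit1, Ifit3, Ifitm2, Irf2, Isg15, Myd88, Rsad2 and Stat2. Of the 9 measured, 2 were higher, 2 were lower and 5 did not pass, where 8.53% of all genes rose and 10.4% fell. That background applies to the motif counts below as well. The interferon-gamma activated site, searched as TTCNNNGAA, was in 8 of the 35 windows and in 8.13% of all windows. Of those 8 genes, 3 were lower, Nod1, Myd88 and Psmb8. The calls of Myd88 and Psmb8 were lost in 10 of 13 and 7 of 12 alternatives. The NF-kB consensus was in 10 of the 35 windows and in 4.46% of all, and 2 of these genes were higher and 1 lower. Overlaps between motifs were kept. A match describes letters and shows no binding.

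Xaf1, which encodes a partner of the apoptosis inhibitor XIAP and is induced by interferon, could not be given a single direction. Its main probe set had 4.41, 3.77 and 4.06 in knockout arrays and 7.63, 7.16 and 6.89 in wild-type arrays. Its second probe set had 5.50, 5.93 and 5.69 in knockout arrays and 2.84, 2.57 and 2.87 in wild-type arrays. The first was lower (log2 fold change -3.15, SE 0.22, limma adjusted p = 0.000201) and the second higher (2.95, SE 0.13, limma adjusted p = 3.36e-05). The groups stood far apart in both, in opposite directions. The sizes are uncertain, since the knockout mean of the first, 4.08, was close to the chemosensory level and the wild-type mean of the second, 2.76, was below it. With the probe sets averaged, the gene had a log2 fold change of -0.10 (limma adjusted p = 0.568). Which transcript parts each probe set reads is not known here.

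The other effectors did not pass. Bst2, which encodes tetherin, a protein that holds budding virus at the cell surface, had 10.27, 10.27 and 10.27 in knockout arrays and 10.40, 10.22 and 10.16 in wild-type arrays. Ifit2 spread widely in wild-type arrays, with 5.93, 6.14 and 6.18 in knockout arrays and 5.55, 6.26 and 6.47 in wild-type arrays. Oasl1, an OAS-like protein that restrains Irf7 translation in mouse cells, averaged 5.02 ± 0.24 in knockout arrays and 4.97 ± 0.10 in wild-type arrays (SD, n = 3 each). The dynamin-like antiviral GTPase genes Mx1 and Mx2, and Ifit3, a partner of Ifit1, lay near background, with log2 fold changes of 0.11, 0.05 and -0.003.

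**Figure D3:**
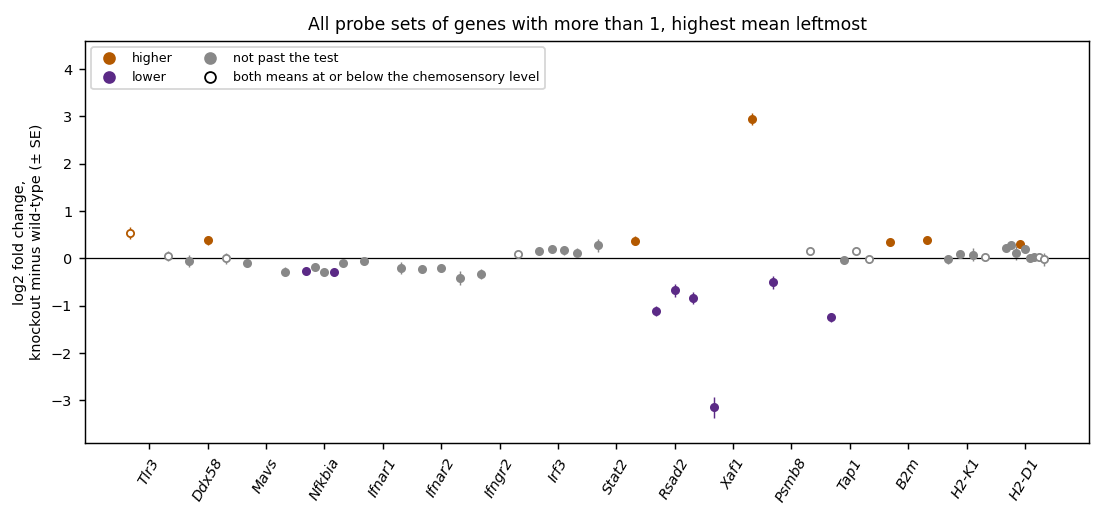
Log2 fold change, knockout minus wild-type, with its SE (vertical axis) for every probe set of the genes with more than 1, the probe set with the highest mean leftmost. The 2 probe sets of Xaf1 lie at -3.15 and 2.95, the 3 of Rsad2 are all lower, the 2 of B2m are both higher, and of 4 Tap1 probe sets only the leftmost is lower.

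All 3 IFITM genes rose, where 8.53% of all genes did. These small membrane proteins block the fusion of incoming viruses with endosomes, and Ifitm1 and Ifitm3 are also known as markers of early germ cells in the mouse. Ifitm3 had 11.97, 11.98 and 12.01 in knockout arrays and 11.44, 11.27 and 11.43 in wild-type arrays, 1.52-fold higher in the knockout (log2 difference 0.61, SE 0.07, limma adjusted p = 0.00173). Ifitm1 had 12.34, 12.32 and 12.34 in knockout arrays and 12.12, 11.99 and 12.12 in wild-type arrays (0.26, SE 0.06, limma adjusted p = 0.0391). Ifitm2 had 11.45, 11.45 and 11.48 in knockout arrays and 11.24, 11.12 and 11.16 in wild-type arrays (0.28, SE 0.06, limma adjusted p = 0.0256). Every knockout value of each gene exceeded every wild-type value. All 3 genes had bright probe sets, and the calls of Ifitm1 and Ifitm2 were each lost in 6 of 13 alternatives. They lie close together on chromosome 7, and the 20 neighbours of Ifitm3, which include Ifitm1 and Ifitm2, had a median of 0.02.

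In the MHC class I group, 3 of 6 genes fell, all of which supply peptides, 1 rose, the light chain gene, and the heavy chain genes did not pass. Over all genes, 10.4% fell and 8.53% rose. Tap1, a subunit of the transporter that moves peptides into the endoplasmic reticulum, had 4.86, 4.82 and 4.81 in knockout arrays and 5.90, 6.12 and 6.21 in wild-type arrays. It was 2.37-fold lower in the knockout (log2 difference -1.25, SE 0.09, limma adjusted p = 0.000221). Its other 3 probe sets had means under 4.62 and did not pass, at -0.04, 0.16 and -0.005. The first of these lay above the chemosensory level in both groups, with means of 4.04 in knockout arrays and 4.08 in wild-type arrays. Averaging the 4 gave -0.28 (limma adjusted p = 0.0128). Psmb9, a catalytic subunit of the immunoproteasome, had 6.04, 5.97 and 5.97 in knockout arrays and 6.53, 6.35 and 6.55 in wild-type arrays (-0.48, SE 0.07, limma adjusted p = 0.00626). Both genes had separate groups.

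Tap1 and Psmb9 are transcribed in opposite directions from starts that lie close together, so they share the stretch between the starts. It is shown here because both genes fell by their main probe sets.
Tap1 and Psmb9 (chr17:34187331-34187555, plus strand, read toward Tap1): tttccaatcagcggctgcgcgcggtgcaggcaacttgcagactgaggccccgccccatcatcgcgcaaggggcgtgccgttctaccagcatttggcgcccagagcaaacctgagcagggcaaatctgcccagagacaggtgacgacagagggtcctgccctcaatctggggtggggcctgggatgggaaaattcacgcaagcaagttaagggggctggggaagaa
The 225 bases, from RefSeq on GRCm38.p6, held no match to the ISRE, interferon-gamma activated site or NF-kB letters as searched. The 20 neighbours of Tap1 with a mean above 7 had a median log2 fold change of 0.03, and 2 were lower and 2 higher. Psmb8, another immunoproteasome subunit of the same gene cluster, had 4.23, 3.75 and 3.82 in knockout arrays and 4.51, 4.37 and 4.44 in wild-type arrays. It passed at -0.51 (SE 0.13, limma adjusted p = 0.0416), near background in the knockout, and 7 of 12 alternatives ended the call. Its other probe set, near background in both groups, was at 0.16 with separate groups (limma adjusted p = 0.178), and averaging both gave -0.17 (limma adjusted p = 0.131).

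B2m encodes beta-2 microglobulin, the light chain that every classical class I molecule needs at the cell surface. It had 9.04, 9.06 and 9.02 in knockout arrays and 8.67, 8.66 and 8.75 in wild-type arrays, which differed by 0.35 (SE 0.06, limma adjusted p = 0.0102), and its second probe set was 0.40 higher (limma adjusted p = 0.00463). The groups were separate in both probe sets. Without knockout replicate 2 the adjusted p was 0.0508.
B2m (chr2:122147437-122147686, plus strand): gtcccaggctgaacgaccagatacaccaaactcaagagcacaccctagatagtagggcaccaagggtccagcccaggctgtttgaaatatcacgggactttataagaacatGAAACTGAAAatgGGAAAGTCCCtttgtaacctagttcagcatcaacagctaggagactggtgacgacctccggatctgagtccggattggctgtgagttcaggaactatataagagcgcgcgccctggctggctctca
This promoter, again 250 bases from RefSeq on GRCm38.p6, is shown because an ISRE match, at positions -139 to -130 from the start, stands beside an NF-kB match at -126 to -117, both in capitals.

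The heavy chains H2-K1 and H2-D1, which hold the peptide, did not pass in their main probe sets. H2-K1 had 7.65, 7.73 and 7.72 in knockout arrays and 7.66, 7.57 and 7.92 in wild-type arrays, with overlapping groups and a log2 fold change of -0.02, and its other 3 probe sets, at 0.02 to 0.09, did not pass. H2-D1 had 7.97, 8.07 and 8.05 in knockout arrays and 7.91, 7.77 and 7.73 in wild-type arrays, which were just separate (0.23, limma adjusted p = 0.0906). Of 9 H2-D1 probe sets, 1 passed, at 0.30 (limma adjusted p = 0.029), and its wild-type mean was only 4.49. Most probe sets of the 2 genes carry the suffix that marks probes shared with similar sequences, so the class I heavy chains may be read together.

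Other genes of the same pathways came from 5 lists with 144 measured genes, of which 7 rose, 27 fell and 110 did not pass, where 8.53% of all genes rose and 10.4% fell. The same background applies to each list. Their median log2 fold change was -0.02. In antigen presentation, 8 of 27 genes fell and 1 rose, with a median of -0.03. Psme1, a subunit of the interferon-inducible proteasome activator, fell by 1.11 to 9.71 ± 0.04 in knockout arrays, against 10.82 ± 0.08 in wild-type arrays (SD, n = 3 each). Pdia3, a disulfide isomerase of the peptide-loading complex, fell by 0.67, and Psmb10, the remaining catalytic immunoproteasome subunit, fell by 0.64. Rfxank, a subunit of the RFX complex that binds MHC promoters, rose by 1.08. The 20 neighbours of Psme1 on chromosome 14 had a median of -0.81, with 19 lower, and Psme1 lies in the same stretch as Irf9. The constitutive subunit gene Psmb5, chosen after its values were seen, was at -0.57 and lies on the same chromosome among neighbours with a median of -0.78.

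Of 43 other interferon-stimulated genes, 11 fell and 2 rose (10.4% and 8.53% over all genes) and 30 did not pass, with a median of -0.05, and 16 were near background in both groups. Gbp2, an interferon-inducible guanylate-binding protein gene, had 3.30, 3.45 and 3.10 in knockout arrays and 5.38, 5.46 and 5.51 in wild-type arrays (log2 fold change -2.16, SE 0.10, limma adjusted p = 3.56e-05). Irgm1, an immunity-related GTPase gene, had 3.79, 3.82 and 3.80 in knockout arrays and 5.73, 5.25 and 5.44 in wild-type arrays (-1.67, SE 0.12, limma adjusted p = 0.000217). Both were near background in the knockout, so the sizes are uncertain. Tor3a, a torsin family gene, fell by 1.09, and Nmi, a STAT-interacting protein gene, rose by 0.94.

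Of 30 other sensing genes, 4 fell and 3 rose. Tlr5, the flagellin receptor, fell by 0.84, Sting1, the adaptor of cytoplasmic DNA sensing, by 0.70 and the kinase gene Ikbke by 0.69, a size that is uncertain because its knockout mean of 3.55 was near background, whereas Trim25, a ubiquitin ligase that acts on RIG-I, rose by 0.67. Of 24 other NF-kB pathway genes, 0 rose and 2 fell, a share no larger than the 10.4% of all genes, namely the tumour necrosis factor receptor gene Tnfrsf1a (-0.39) and the kinase gene Ikbkb (-0.37). Of 20 interferon ligands and JAK-STAT genes, 2 fell and 1 rose. Tyk2, a kinase bound to the type I interferon receptor, fell by 0.66, Irf2bp2, a corepressor of Irf2, fell by 0.27, and the feedback inhibitor gene Socs3 rose by 0.34. The interferon-beta gene Ifnb1 had means of 3.56 in knockout arrays and 3.42 in wild-type arrays, both near background.

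**Figure D4:**
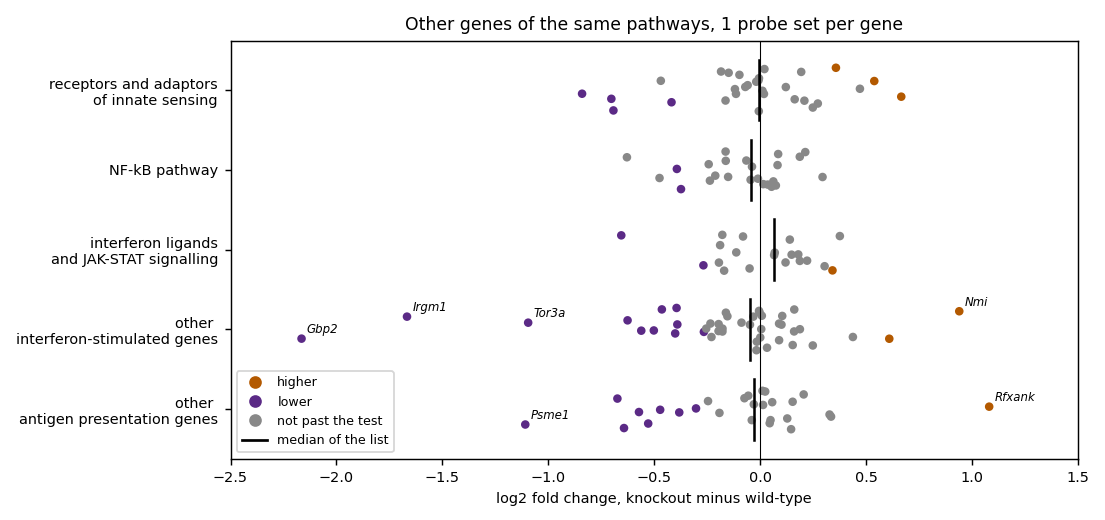
Log2 fold change, knockout minus wild-type (horizontal axis), of the 144 other pathway genes in 5 lists, 1 point per gene with vertical jitter and a black bar at each list's median. Gbp2, Irgm1, Tor3a and Psme1 lie furthest to the lower side and Rfxank and Nmi furthest to the higher side, while the list medians lie between -0.05 and 0.07.

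**Figure D5:**
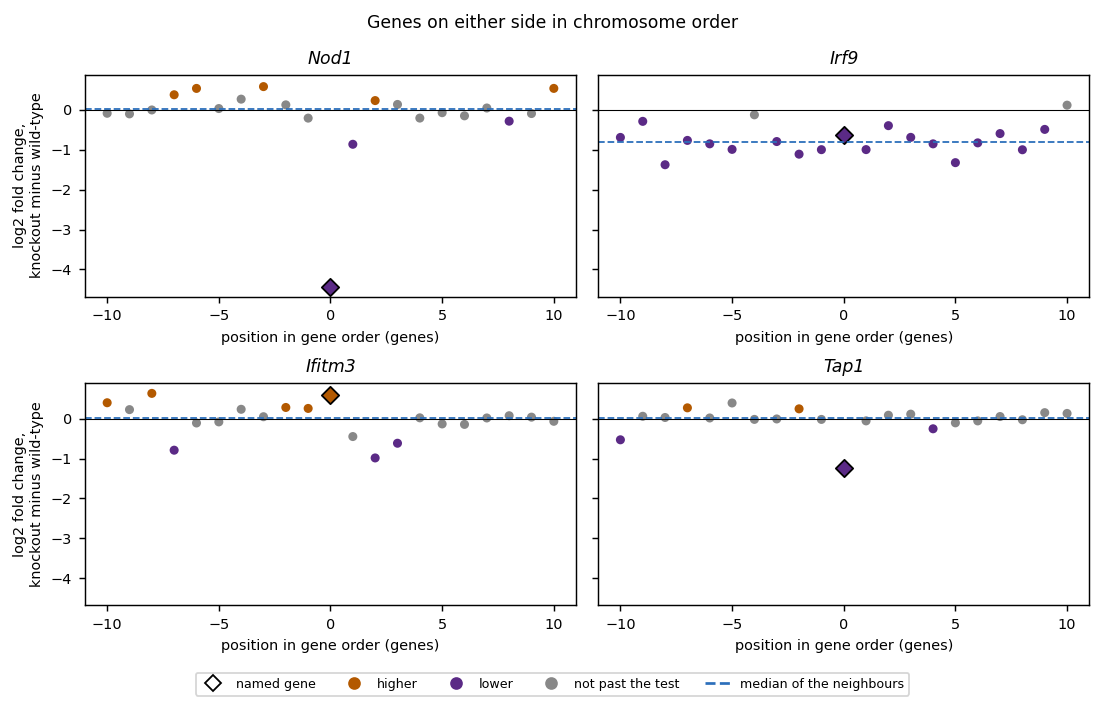
Log2 fold change, knockout minus wild-type (vertical axis), of Nod1, Irf9, Ifitm3 and Tap1 (diamonds) and of the 10 genes on each side in chromosome order with a mean above 7 (circles), with the neighbours' median as a dashed line. The neighbours of Irf9 have a median of -0.81 and those of Nod1, Ifitm3 and Tap1 medians of 0.02, 0.02 and 0.03.

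Of the 36 genes, Irf9 alone had neighbours with a median at or below -0.4. Among the 144 other pathway genes 3 did, all on chromosome 14: Psme1, Psmb5 and Phf11d. Phf11d, among the interferon-stimulated genes that fell, was at -0.56, and its neighbours had a median of -0.71. Nod1 lies on chromosome 6, where its neighbours had a median of 0.02, and Xaf1 on chromosome 11, where the median was -0.01. Around Rsad2 on chromosome 12 the median was -0.04, although 9 of its 20 neighbours were lower past the test. Some markers of other cells differed between the groups as well, where 10.4% of all genes fell and 8.53% rose. Of 14 endoderm markers, 12 fell and 0 rose, with a median of -2.32, and their summed level on the linear scale was 586 to 645 in knockout arrays and 3200 to 4368 in wild-type arrays. Of 14 leukocyte and macrophage markers, 2 fell, Cd68 by 1.55 and Laptm5 by 0.54, none rose, and the list's median was 0.11. The summed level of the whole list, Cd68 and Laptm5 included, was 1393 to 1444 in knockout arrays and 2141 to 2438 in wild-type arrays. Those 2 genes had the highest means of the list and weigh most in this sum. Laptm5 averaged 9.96 in knockout arrays and 10.50 in wild-type arrays, and Cd68 7.80 and 9.35. The defining leukocyte marker Ptprc was near background at means of 2.84 in knockout arrays and 2.93 in wild-type arrays, as were 7 further markers of that list, Adgre1 and Tyrobp among them. Of 11 fibroblast markers, 2 fell (Thy1 and Twist1) at a list median of -0.07, with summed levels of 150.0 to 162 in knockout arrays and 182 to 207 in wild-type arrays. The part of these other cells in the results above was not tested.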

How the data were processed

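Trizol-extracted total RNA was biotin-labelled as cRNA, per the labels' protocols. The values deposited by the authors, in 1 table of 6 arrays, are on a log2 scale as judged from their range. RMA and MAS5 are named without a role or version, per the submitters' processing notes. Values were used as deposited. After 64 array controls were left out, 45037 probe sets were tested with limma 3.58.1 in R 4.3.3 (lmFit, eBayes, two-sided, equal weights, no covariate). Adjustment was by Benjamini-Hochberg over all of them, and 0.05 was the threshold. Residual degrees of freedom were 4, and prior degrees of freedom 3.08. The test was also run on simulated data with independent noise in each array. That simulation holds no deviation shared by the arrays of a group, so it does not bear on such differences here. Nothing says that the replicates were separate cultures beyond the word biological, so p values measure the spread between these arrays, and their number limits precision.

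By the platform annotation, 34945 probe sets had 1 symbol, 932 had several and 9160 had none. Gene order and the sequences of promoters came from RefSeq tables of GRCm38.p6; no build is named with the values. The members and lists were chosen with earlier results of these data known. Named genes were all members, and for each pathway list up to 4 genes with the largest change past the threshold. Marker lists are given by count, summed level and defining markers. A few further genes are named for their level or their neighbours. Alternatives were quantile normalization, median centring, a mean-dependent prior, array weights, only probe sets above the median, a replicate block, averaging the probe sets of a gene, and leaving out each array. Same-numbered arrays did not deviate from their group means together (correlations -0.13, -0.06 and 0.0008), so the numbers were not taken as pairs.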

Additional observations from a re-analysis of the deposited data

How the results depend on the processing

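The number of arrays limits every count. Over the 36 genes, 405 of 459 values under the alternatives kept their side of the threshold, 43 lost it and 11 gained it, and no called value changed its sign. The count of higher genes was 5 with the deposited values and ranged from 1 to 6 when an array was left out, and that of lower genes from 6 to 8, against 9. Over the 71 probe sets the higher count ranged from 3 to 9, against 10, and the lower count from 7 to 10, against 12. Over all probe sets the higher count ranged from 1497 to 3494, against 3013. With the replicate block, the higher counts were 2 genes, 4 of the 71 probe sets and 1915 of all probe sets. That fit keeps 2 residual degrees of freedom. The averaged probe sets ended the call of Xaf1 because its 2 probe sets have opposite signs.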
